A study of Mus musculus with 7 samples.

Results

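The genes described here encode the subunits of the 5 enzyme complexes of oxidative phosphorylation. They were chosen by name from the array annotation, as genes with 1 symbol starting with Nduf, Uqcr or Atp5, matching Cox4 to Cox8, or equal to Sdha, Sdhb, Sdhc or Sdhd. The rule found 89 genes of 19938 tested, measured by 114 probe sets. Complex I held 36 subunits and 7 assembly factors (Ndufaf genes, which share the name but are not part of the finished enzyme), complex II 4, complex III 8, complex IV 17 and complex V 17.

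Complex I takes electrons from NADH and complex II takes them from succinate. Both hand them through ubiquinone to complex III, and cytochrome c carries them on to complex IV, which reduces oxygen. Complexes I, III and IV pump protons across the inner mitochondrial membrane, and complex V, the ATP synthase, uses the proton gradient to make ATP. In beta cells the rise of ATP after glucose uptake closes potassium channels and starts insulin secretion, so these complexes are known as the link between metabolism and secretion. A few catalytic subunits are encoded in mitochondrial DNA, and all members described here are encoded in the nucleus.

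Islets came from female mice on the C57BL/6 background, mated at 12 to 16 weeks of age and killed on day 15 of pregnancy. In 3 mice the prolactin receptor gene was intact (PrlR+/+), and 4 mice carried 1 null allele of it (PrlR+/-). The labels name no driver or cell type for the null allele, and both groups were pregnant. Each mouse gave 1 array from 250 ng of total RNA with an integrity number above 8.5, and values are the deposited log2 values, so a difference of 1 is a 2-fold difference in signal.

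No check of the genotypes by the prolactin receptor transcript was made here. The tissue label was checked against marker genes. The mean log2 value of 10 measured beta cell markers ran from 12.169 to 12.332 for PrlR+/+ mice and from 12.021 to 12.277 for PrlR+/- mice. Markers of digestive acinar cells were also bright, with a mean over 9 genes from 11.89 to 12.31 for PrlR+/+ mice and from 12.03 to 12.43 for PrlR+/- mice, so RNA of exocrine cells was present on every array. The median gene value was 7.34 to 7.37 on every array. In PrlR+/- 4 the lower quartile was the highest of all arrays (5.82) and the upper quartile the lowest (8.97). Fewer cells of a type and less RNA per cell cannot be told apart in such whole-islet samples. Precision is limited by the number of arrays; the median standard error (SE) of a member's log2 difference was 0.105. Nothing in the labels says whether the mice shared litters or array runs, and batch was not tested.

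Setting the genotypes side by side asks which islet transcripts depend on both receptor alleles in pregnancy. No member of the 5 complexes passed the test. limma called 0 of 89 members at an adjusted p under 0.05, beside 0 of 19938 genes (0%), with a smallest adjusted p of 0.99. At an unadjusted p under 0.05, limma marked 1 member, Atp5h, beside 438 genes or 2.2% of all genes tested. The mean was higher in PrlR+/- islets for 58 of the 89 members (65.2%) and lower for 31, beside 55.7% of all genes higher. The median difference of the members was 0.0592, beside 0.0142 for all genes. It was 0.105 without PrlR+/+ 2, 0.0175 without PrlR+/+ 3 and 0.0333 without PrlR+/- 4. For 72 members (80.9%) the 95% interval of the difference lay within 1.5-fold in both directions, beside 89.9% of all genes.

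Taken by complex, the mean of the members in each mouse overlapped between the genotypes. The 36 complex I subunits had a mean log2 value of 9.67, 9.62 and 9.56 for PrlR+/+ mice and of 9.68, 9.58, 9.72 and 9.77 for PrlR+/- mice, in the order of their numbers. The 17 complex IV subunits had 9.01, 9.07 and 8.96 in PrlR+/+ and 9.12, 8.95, 9.11 and 9.21 in PrlR+/- mice. In both complexes PrlR+/- 2 lay within or below the PrlR+/+ range, while the other PrlR+/- mice lay above it. Complex V gave 10.69, 10.77 and 10.67 against 10.78, 10.63, 10.80 and 10.78, and here PrlR+/- 2 was the lowest of all 7 mice. Complex III gave 10.15, 10.19 and 10.05 against 10.17, 10.10, 10.26 and 10.26. The 4 genes of complex II gave 10.40, 10.55 and 10.39 against 10.44, 10.39, 10.52 and 10.50, with PrlR+/+ 2 the highest. The mean differences were 0.0716 for complex I, 0.0169 for complex II, 0.0678 for complex III, 0.0811 for complex IV and 0.0372 for complex V. The size of each depended on single mice, and for complex II the sign as well. With 1 mouse left out, the complex I difference was lowest without PrlR+/- 4 (0.0441), complex IV likewise (0.0429), and complexes II, III and V without PrlR+/+ 3 (-0.0131, 0.0278 and 0.0169). Without PrlR+/- 2 they were 0.108 for complex I, 0.1004 for complex III, 0.131 for complex IV and 0.0769 for complex V, and without PrlR+/+ 2 that of complex II was 0.0706. The 7 assembly factors of complex I lay on the other side, at a mean difference of -0.0365.

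**Figure D1:**
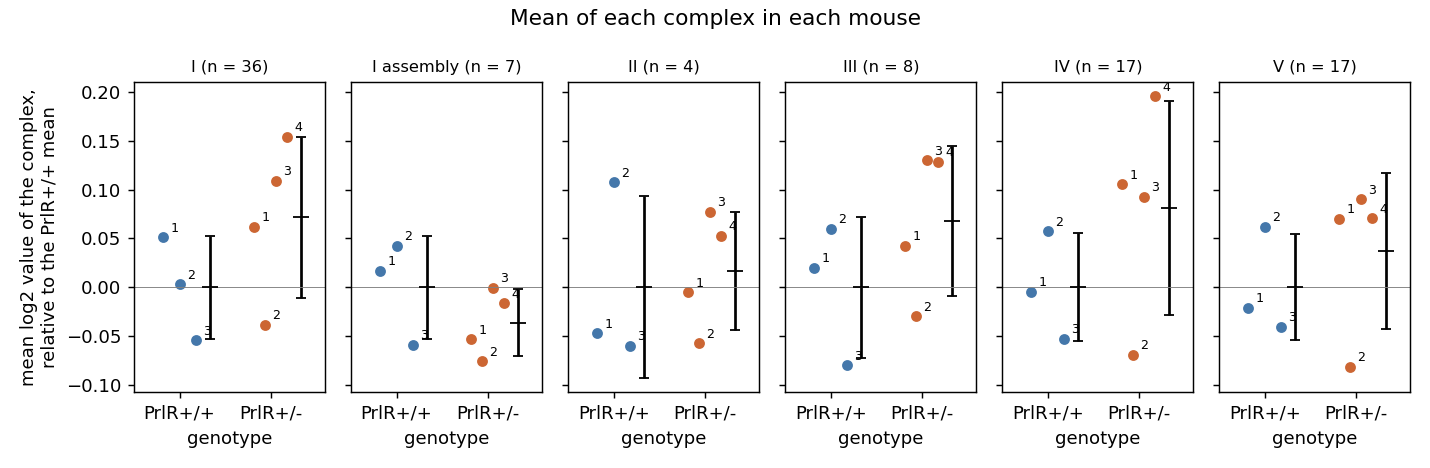
Mean log2 value of the members of each complex in each mouse, drawn relative to the PrlR+/+ mean, with n the number of genes. Points are mice with their replicate number and bars show the mean and SD of each genotype. The genotypes overlap in every panel, and PrlR+/- 2 is the lowest PrlR+/- mouse throughout.

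By direction, 25 of 36 complex I subunits, 2 of 4 of complex II, 4 of 8 of complex III, 15 of 17 of complex IV and 11 of 17 of complex V had higher means in PrlR+/- islets, beside 55.7% of all genes. The 15 of complex IV include the dim genes Cox6b2, Cox7b2, Cox8b and Cox8c, whose levels may not reflect transcripts. Above the 40th percentile of mean level, 54 of 84 members (64.3%) were higher, beside 48.5% of all genes. Of the 7 assembly factors 1 was higher. The quartiles of the differences over all members were -0.0258 and 0.138, beside -0.0558 and 0.0783 over all genes, and the extremes were Atp5d at -0.31 and Uqcr11 at 0.47. Of the members, 2 had groups that did not overlap (2.25%, beside 2.24% of all genes tested). Both were higher in PrlR+/- mice, beside 1.03% of all genes with groups apart in that direction. These few members give no result about the complexes.

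**Figure D2:**
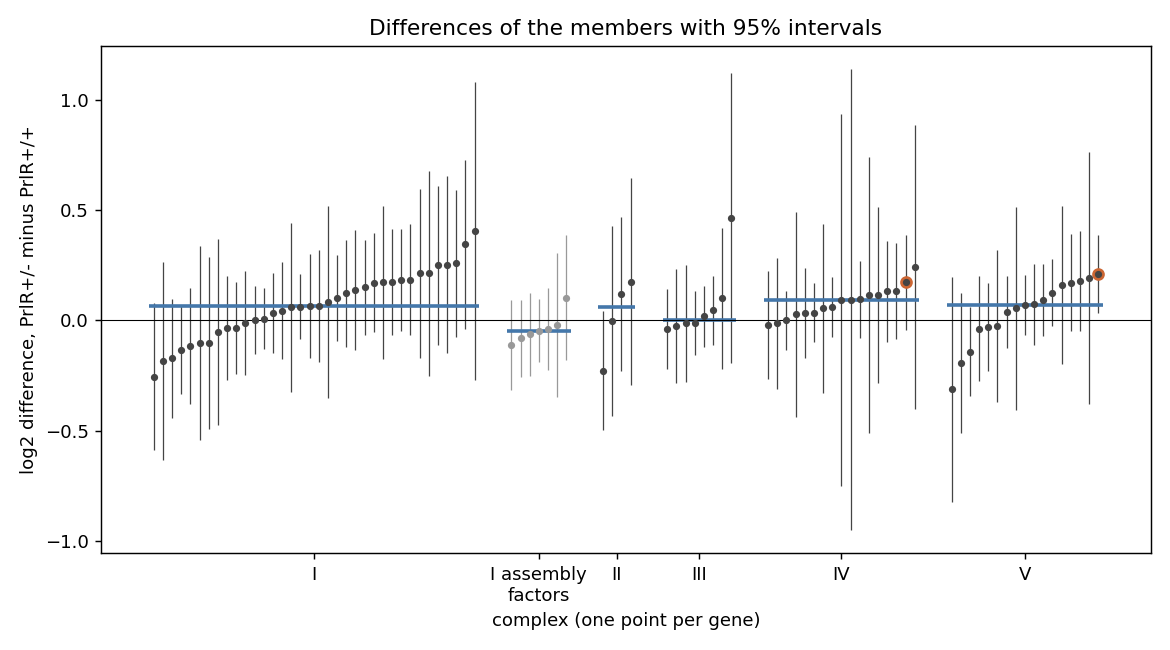
Log2 difference, PrlR+/- minus PrlR+/+, of each member with its 95% interval from limma, ordered by size within each complex. Blue lines are complex medians and orange rings mark the 2 genes, Atp5h and Cox7b, whose groups did not overlap. Nearly all intervals cross 0.

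Atp5h encodes subunit d of the peripheral stalk that holds the ATP synthase head in place. Its log2 value was 10.91, 10.76 and 10.91 for PrlR+/+ mice and 11.04, 10.96, 11.10 and 11.19 for PrlR+/- mice, in the order of their numbers. Every PrlR+/- mouse lay above every PrlR+/+ mouse. The difference was 0.21 ± 0.08 (SE), a ratio of 1.16 (limma, unadjusted p = 0.0252, adjusted p = 0.99). It lay between 0.1625 and 0.25 with any 1 mouse left out. The other 2 probe sets of the gene gave 0.17 and 0.20, with groups that overlapped.

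Cox7b encodes a small subunit of complex IV. It was at 12.25, 12.17 and 12.24 in PrlR+/+ and at 12.26, 12.26, 12.57 and 12.48 in PrlR+/- mice. PrlR+/- 1 and PrlR+/- 2 lay above PrlR+/+ 1 by 0.01, so the groups were barely apart. The difference was 0.17 ± 0.09 (SE; limma, adjusted p = 0.99), and the groups overlapped after median centring or with the mean of both probe sets of the gene. The second probe set alone gave 0.27, with groups that overlapped.

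The count of members without overlap changed with the mouse left out, and the share of all genes rose from 2.24% with any 1 left out. Of the 89 members, 11 had such groups without PrlR+/+ 1, 12 without PrlR+/+ 2, 5 without PrlR+/- 1 and 8 without PrlR+/- 2. There 6.71%, 10.3%, 5.42% and 5.67% of all genes had such groups. The members numbered 2 without PrlR+/+ 3, 3 without PrlR+/- 3 and 2 without PrlR+/- 4, beside 5.75%, 4.95% and 3.54% of all genes. Of the 12 members without PrlR+/+ 2, 7 were higher in PrlR+/- mice. All 8 members without PrlR+/- 2 were higher in PrlR+/- mice. PrlR+/- 2 was itself the lowest of all mice for 24 of the 89 members (27.0%, beside 15.9% of all genes). With a mouse left out, the shares of all genes are for either direction, so these directions have no share beside them and give no result about the members. Members and all genes were not compared by a test.

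The promoters of 73 members are held in the RefSeq tables of build GRCm38.p6. Genes of oxidative phosphorylation are known targets of NRF1 (nuclear respiratory factor 1) and of the ETS family factor GABP, also called NRF2. In the 250 bases before the start, the NRF1 core GCGCATGC was found on either strand in 9 of 78 member windows (11.5%), beside 2.26% of 32851 windows of all genes. The ETS core CCGGAAG was found in 13 member windows (16.7%), beside 6.91% of all windows. Both were found in 2 member windows and neither in 58. The median GC content was 56.8% in member windows and 52.4% in all windows. A match is a description of the letters and not a binding site.

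Shown are the windows of both members without overlap and of the 2 members with a promoter entry that varied most between mice, from 250 bases upstream to the base before the start, 5′ to 3′ on the strand of the gene, with matches in capitals. Atp5h lies at chr11:115419920-115420169 on the minus strand, Cox7b at chrX:106015450-106015699 on the plus strand, Cox6a1 at chr5:115348959-115349208 on the minus strand and Uqcr11 at chr10:80406822-80407071 on the minus strand.
Atp5h: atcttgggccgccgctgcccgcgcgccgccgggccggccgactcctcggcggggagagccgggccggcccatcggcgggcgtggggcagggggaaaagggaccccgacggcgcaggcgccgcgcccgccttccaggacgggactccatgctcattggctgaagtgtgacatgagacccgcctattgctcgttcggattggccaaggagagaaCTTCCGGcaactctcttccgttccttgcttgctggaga
Cox7b: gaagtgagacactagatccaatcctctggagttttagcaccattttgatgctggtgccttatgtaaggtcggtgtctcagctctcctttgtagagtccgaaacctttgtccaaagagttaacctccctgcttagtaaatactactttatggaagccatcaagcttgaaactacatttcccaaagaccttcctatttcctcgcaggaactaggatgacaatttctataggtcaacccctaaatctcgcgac
Cox6a1: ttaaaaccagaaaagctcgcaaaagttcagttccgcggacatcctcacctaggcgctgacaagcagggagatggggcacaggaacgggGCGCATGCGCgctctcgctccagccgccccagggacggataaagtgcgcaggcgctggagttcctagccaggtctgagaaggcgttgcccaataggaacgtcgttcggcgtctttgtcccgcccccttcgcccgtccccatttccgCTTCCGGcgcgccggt
Uqcr11: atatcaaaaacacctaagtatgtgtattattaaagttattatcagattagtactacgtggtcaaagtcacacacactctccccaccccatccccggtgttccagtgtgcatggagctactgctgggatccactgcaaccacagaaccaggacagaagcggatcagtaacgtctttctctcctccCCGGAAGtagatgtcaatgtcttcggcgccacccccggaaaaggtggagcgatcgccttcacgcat

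The window of Cox6a1 held the NRF1 core on both strands in 1 palindromic stretch that starts 162 bases before the start, and an ETS core that begins 16 bases before it. The Atp5h window held an ETS core that begins 38 bases upstream, and that of Uqcr11 one that begins 66 bases upstream. The Cox7b window held neither motif. The motif content of these windows and the differences between mice were not set against each other.

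In complex I, the 6 core subunits had 95% intervals that stayed within 1.5-fold. Ndufs7, which holds the last iron-sulphur cluster before ubiquinone and was the brightest member of the complex, was at 12.51, 12.16 and 12.43 against 12.35, 12.47, 12.28 and 12.23. Ndufv1, which binds NADH and the flavin, was at 10.12, 10.04 and 10.04 against 10.04, 10.06, 9.84 and 9.79, a difference of -0.13 ± 0.08 (SE). Only PrlR+/- 3 and PrlR+/- 4 lay below the PrlR+/+ range. Ndufa4, named for complex I and since assigned to complex IV, was at 9.25, 9.41 and 9.18 against 9.35, 8.81, 8.83 and 9.11, a difference of -0.26 ± 0.14 (SE).

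Its paralogue Ndufa4l2, known as a gene induced by low oxygen, was at 7.13, 6.75 and 6.87 against 6.94, 7.18, 7.32 and 7.61. The PrlR+/- values were spread upwards from within the PrlR+/+ range, with a difference of 0.35 ± 0.16 (SE; limma, unadjusted p = 0.0715, adjusted p = 0.99). The accessory subunit gene Ndufb2 was at 7.96, 7.69 and 7.74 against 7.84, 7.90, 8.11 and 8.07, a difference of 0.18 ± 0.10. The largest difference of the complex, 0.41 ± 0.29, belonged to the accessory subunit gene Ndufs5, at 8.52, 8.76 and 8.41 against 8.87, 8.22, 9.30 and 9.49. PrlR+/- 2 had the lowest and PrlR+/- 4 the highest Ndufs5 value of all 7 mice, so its interval from -0.27 to 1.08 was wide. Ndufs5 and the genes Cox7c and Ndufb4 are also matched by 6 probe sets that carry several symbols and were not used.

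The assembly factors varied less than the subunits. Their median SD over the 7 mice was 0.099 against 0.166 for the complex I subunits. The factors were also dimmer, with a PrlR+/+ mean of 7.78 against 9.615, and the part of level in the spread was not tested. Ndufaf1, which helps to build the membrane arm, was the 1 factor with a higher mean in PrlR+/- islets, at 0.10 ± 0.12 (SE). Ndufaf5, the dimmest, was at 6.70, 6.47 and 6.65 against 6.55, 6.55, 6.33 and 6.55. All 7 intervals lay within 1.5-fold.

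Complex II also works in the citrate cycle. Sdha, the flavoprotein that oxidizes succinate, was at 10.91, 11.25 and 11.14 in PrlR+/+ and 11.01, 10.95, 10.89 and 10.64 in PrlR+/- islets, a difference of -0.23 ± 0.12 (SE; limma, unadjusted p = 0.0883, adjusted p = 0.99). PrlR+/- 3 and PrlR+/- 4 lay below the PrlR+/+ range and the others within it. The iron-sulphur subunit gene Sdhb was at 9.38 ± 0.28 (SD, n = 3) against 9.50 ± 0.17 (SD, n = 4). The membrane anchor genes Sdhc and Sdhd differed by 0.18 ± 0.20 and -0.00 ± 0.18 (SE).

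Both anchor genes were set apart by 1 PrlR+/+ mouse, in opposite directions. Sdhc was at 10.57 in PrlR+/+ 2 and ran from 11.04 to 11.44 in the 6 other mice. Sdhd was at 10.68 in PrlR+/+ 2 and ran from 9.98 to 10.46 in the others. Without PrlR+/+ 2 the Sdhc difference was -0.06 and the Sdhd difference 0.2125, so neither sign was stable.

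In complex III, 7 of the 8 subunit genes differed by at most 0.10 in either direction. Uqcrb had a mean of 12.07 ± 0.03 (SD, n = 3) against 12.09 ± 0.06 (SD, n = 4), while Uqcrfs1, the Rieske iron-sulphur protein, was at 8.33 ± 0.24 against 8.31 ± 0.07. Uqcr10, a small subunit gene, was at 8.62 ± 0.10 against 8.59 ± 0.10 and the hinge protein gene Uqcrh at 10.60 ± 0.21 against 10.70 ± 0.20. The exception was Uqcr11, the gene of a small subunit. It was at 9.46, 9.86 and 9.51 in PrlR+/+ and at 9.70, 9.54, 10.66 and 10.40 in PrlR+/- mice, so PrlR+/- 3 and PrlR+/- 4 stood above all others and the remaining 2 lay inside the PrlR+/+ range. Its difference of 0.47 ± 0.28 (SE) was the largest of all members (limma, adjusted p = 0.99), and its second probe set gave 0.38.

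Complex IV has several subunits with a widespread and a tissue-restricted isoform. Cox4i1, the widespread form of subunit 4, was at 9.16, 9.51 and 9.08 against 9.26, 9.03, 9.39 and 9.27, and Cox4i2, known from lung and from low oxygen, at 7.42, 7.19 and 7.42 against 7.42, 7.64, 7.32 and 7.52. Their differences were -0.01 ± 0.13 and 0.13 ± 0.10 (SE). The brightest member of the complex, Cox6c, was at 12.58 ± 0.05 (SD, n = 3) against 12.58 ± 0.05 (SD, n = 4). Cox5b was at 11.11 ± 0.11 against 11.25 ± 0.14. Cox8a, the widespread form of subunit 8, was at 12.01, 11.60 and 11.92 against 11.84, 11.86, 11.71 and 11.88, with PrlR+/+ 2 the lowest and PrlR+/- 3 the next lowest mouse.

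Most isoforms known from testis or striated muscle were below the median gene, which lay at 7.34 to 7.37. Cox6b2 of testis lay between 5.96 and 6.27 on all arrays, Cox8c of testis between 6.49 and 6.66, Cox8b of muscle between 5.60 and 5.91, and Cox7b2 between 3.90 and 4.05. No signal above background is given with the values, so these levels may not reflect transcripts. Their differences lay between 0.035 and 0.0958. Cox7a1, the muscle form of subunit 7a, was at 6.35, 6.71 and 6.59 against 6.51, 6.25, 6.94 and 7.47, a difference of 0.24 ± 0.28 (SE) that was 0.01667 without PrlR+/- 4.

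The exception among the muscle isoforms was Cox6a2. This isoform of subunit 6a is known from heart and skeletal muscle, and its log2 value was 11.59, 10.08 and 11.21 for PrlR+/+ mice and 11.43, 11.50, 10.11 and 11.18 for PrlR+/- mice. The values of PrlR+/+ 2 and PrlR+/- 3 were thus more than 1 log2 unit below those of the 5 other mice, and each genotype held 1 of them. The whole range was 2.85-fold, the widest of all 89 members. The 10 muscle markers, among them the creatine kinase gene Ckm and the actin gene Acta1, had a mean between 6.08 and 6.33 over the 7 mice, with 6.18 in PrlR+/+ 2 and 6.12 in PrlR+/- 3. The beta cell marker mean was 12.169 in PrlR+/+ 2 and 12.235 in PrlR+/- 3, and the lowest beta cell mean, 12.021, was that of PrlR+/- 4. The part of either cell type in the Cox6a2 values was not tested.

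Cox6a1, the widespread isoform of the same subunit, took the opposite course over the mice. It was at 9.69, 10.91 and 9.91 in PrlR+/+ and 10.30, 9.57, 10.76 and 10.42 in PrlR+/- mice, so PrlR+/+ 2 and PrlR+/- 3 had the highest values. Its range was 2.53-fold, the second widest. The genotype differences of Cox6a2 and Cox6a1 were 0.10 ± 0.45 and 0.09 ± 0.36 (SE), with intervals that span 0. Without PrlR+/+ 2 the Cox6a2 difference was -0.345, and without PrlR+/+ 1 that of Cox6a1 was -0.1475, so their signs rested on single mice.

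Among other widespread subunits of complex IV, Cox7a2 was at 9.68, 10.40 and 9.72 against 10.32, 9.42, 10.30 and 10.15, and Cox6b1 at 10.85, 11.31 and 10.83 against 11.23, 10.74, 11.26 and 11.22. In both, PrlR+/+ 2 was the highest and PrlR+/- 2 the lowest mouse. Cox7a2l, which helps to join complexes III and IV into supercomplexes, was at 9.52 ± 0.06 (SD, n = 3) against 9.57 ± 0.32 (SD, n = 4). The differences of these 3 genes were 0.11 ± 0.27, 0.12 ± 0.17 and 0.06 ± 0.16 (SE).

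**Figure D3:**
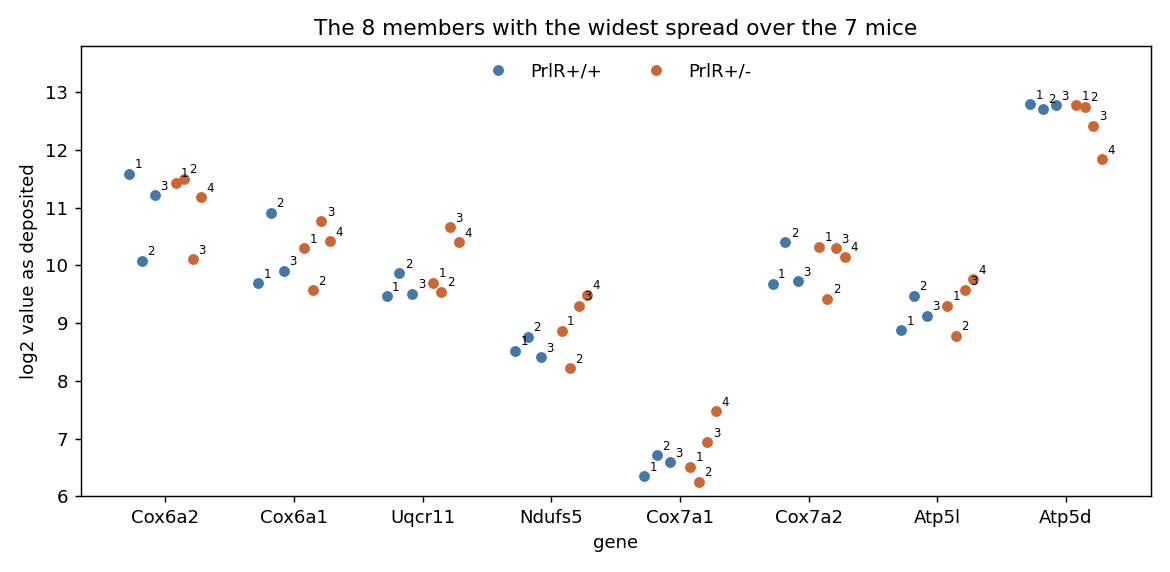
Log2 values of the 8 members with the widest SD over the 7 mice, one point per mouse with its replicate number, PrlR+/+ in blue and PrlR+/- in orange. For Cox6a2, PrlR+/+ 2 and PrlR+/- 3 lie near 10.1 and the others above 11, and for Cox6a1 those 2 mice are the highest.

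In complex V the genes of both large subunits of the catalytic head and of the delta subunit had lower means in PrlR+/- islets, while 4 of the other central stalk and ring genes and 7 of 9 accessory genes had higher means. Atp5d, the delta subunit of the central stalk, was at 12.79, 12.71 and 12.77 in PrlR+/+ and 12.77, 12.75, 12.42 and 11.84 in PrlR+/- islets. PrlR+/- 1 and PrlR+/- 2 lay with the PrlR+/+ mice and PrlR+/- 4 far below them, so the difference of -0.31 ± 0.22 (SE) was -0.11 without PrlR+/- 4. The catalytic subunit gene Atp5b was at 12.77, 12.46 and 12.67 against 12.53, 12.70, 12.36 and 12.17, and its partner Atp5a1 at 11.33, 11.60 and 11.37 against 11.41, 11.26, 11.21 and 11.29. Their differences were -0.19 ± 0.14 and -0.14 ± 0.09. The other central stalk genes lay on the higher side, Atp5c1 of the gamma subunit at 0.055 ± 0.20 and Atp5e of the epsilon subunit at 0.16 ± 0.15.

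Beside Atp5h, the peripheral stalk gene Atp5j was at 11.46 ± 0.07 (SD, n = 3) against 11.64 ± 0.16 (SD, n = 4). Atp5k, a membrane subunit and the dimmest member of the complex, was at 8.0, 7.91 and 7.86 against 8.01, 8.04, 8.0 and 8.15, with groups that touch at 8.0 and a difference of 0.13 ± 0.07 (SE). Atp5l, another membrane subunit, was at 8.88, 9.47 and 9.13 against 9.30, 8.78, 9.57 and 9.76, and its 6 probe sets gave differences between 0.19 and 0.28. The ring of c subunits turns as protons pass, and its protein is encoded by the 3 genes Atp5g1, Atp5g2 and Atp5g3. Atp5g1 was at 12.12, 11.94 and 11.84 against 12.17, 12.12, 11.99 and 12.30, a difference of 0.18 ± 0.10, while Atp5g2 and Atp5g3 differed by 0.04 ± 0.07 and -0.03 ± 0.09.

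Across complexes, core subunits and accessory subunits had different medians. The core set of 19 genes held 6 complex I subunits (Ndufs1, Ndufs3, Ndufs7, Ndufs8, Ndufv1 and Ndufv2), the 4 of complex II, Uqcrfs1, and the 8 genes of the catalytic head, central stalk and c ring of complex V. The accessory set held the other 63 subunits, and the split was made after the values were seen. Of the core genes 9 were higher and 10 lower in PrlR+/- islets, with a median of -0.000833, and of the accessory genes 48 were higher and 15 lower, with a median of 0.085. All genes had a median of 0.0142. In complex I the medians were 0.005 for 6 core and 0.0938 for 30 accessory genes, and in complex V 0.00333 for 8 core and 0.0933 for 9 accessory genes. With any 1 mouse left out the accessory median lay between 0.0475 and 0.1225 and the core median between -0.0375 and 0.05667, and the difference between the sets was not tested. The accessory mean per mouse was 9.55, 9.55 and 9.46 in PrlR+/+ and 9.60, 9.47, 9.65 and 9.71 in PrlR+/- mice, so PrlR+/- 2 again lay inside the PrlR+/+ range.

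Variation between mice was slightly wider among the members than among all genes. The median SD over the 7 mice was 0.150 for the members and 0.134 for all genes, and 9 members (10.1%, beside 7.04% of all genes) had an SD over 0.3. These were Cox6a2, Cox6a1, Uqcr11, Ndufs5, Cox7a1, Cox7a2, Atp5l, Atp5d and Ndufb8. PrlR+/- 4 had the highest value of all mice for 29 members (32.6%, beside 29.3% of all genes) and the lowest for 11 (12.4%, beside 17.8%). PrlR+/+ 3 and PrlR+/- 2 had the lowest value for 25 and 24 members (28.1% and 27.0%) and the highest for 1 each, where 11.2% and 15.9% of all genes were lowest in those mice. PrlR+/+ 2 had the highest value for 19 members and the lowest for 19 (21.3% each, beside 13.6% and 13.4% of all genes). PrlR+/+ 1 had the highest value for 16 members (17.98%, beside 8.88% of all genes) and the lowest for 3.

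PrlR+/+ 3 and PrlR+/- 2, the mice that were lowest for the most members, had beta cell marker means of 12.332 and 12.23. Over all mice this mean ran from 12.021 to 12.332. PrlR+/- 2 had the highest means for acinar (12.43), endothelial (9.999) and stellate cell markers (7.85). The same mouse was highest for alpha (11.85), delta (10.375), duct (7.772) and myeloid cell markers (7.7125). PrlR+/+ 3 had the lowest acinar mean (11.89). The part of these cell types in the members' values was not tested.

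**Figure D4:**
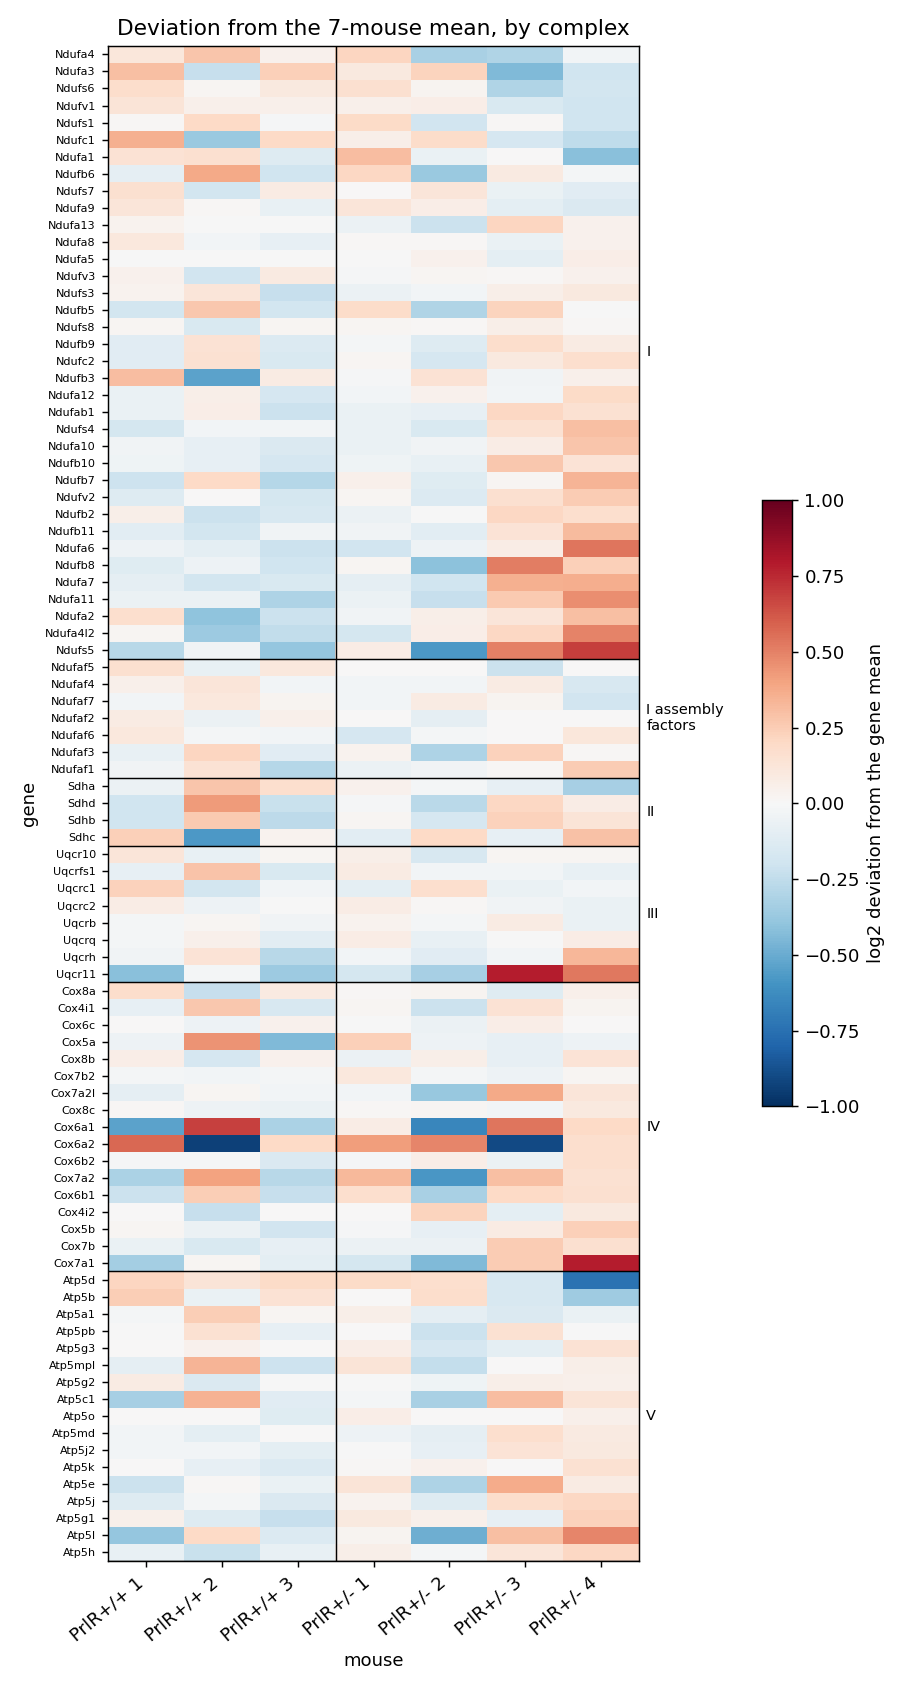
Deviation of each member from its mean over the 7 mice, on the log2 scale, with genes in rows by complex and ordered by genotype difference, and mice in columns. Red is above and blue below the gene mean. The blue columns of PrlR+/+ 3 and PrlR+/- 2 and the opposite colours of Cox6a1 and Cox6a2 in PrlR+/+ 2 and PrlR+/- 3 stand out.

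Many of these genes have near-identical processed copies elsewhere in the mouse genome, and probes may bind transcripts of both. Of the 89 members, 17 had more than 1 probe set. In 16 of these all probe sets of a gene had differences of the same sign, the exception being Cox6c with differences near 0, and the widest gap between probe sets of a gene was 0.133, for Ndufa11. The probe sets of a gene may share probes and are no independent measurement.

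The surroundings of the complexes were described by lists of other mitochondrial genes. Of 12 electron carriers and exchange proteins 7 were higher and 5 lower, with a median of 0.0113. Cycs, cytochrome c, was at 11.66, 11.46 and 11.50 against 11.65, 11.81, 11.71 and 11.74, a difference of 0.19 ± 0.07 (SE; limma, unadjusted p = 0.0334, adjusted p = 0.99). Only PrlR+/- 1 lay inside the PrlR+/+ range. Slc25a4, an ADP/ATP carrier, differed by -0.19 ± 0.08. The mitochondrially encoded subunit genes COX2 and ND3, chosen after their values were seen, differed by -0.05 ± 0.07 and -0.06 ± 0.07.

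Of 17 genes listed as markers of mitochondrial mass 4 were higher and 13 lower, with a median of -0.065, on the other side of the subunits. The list also holds chaperone, protein import and fusion genes, and mitochondrial mass itself was not measured. Their mean was 9.98, 10.12 and 10.00 in PrlR+/+ and 10.03, 9.93, 10.01 and 9.85 in PrlR+/- mice, so the genotypes overlapped. PrlR+/- 4 was the lowest mouse here and the highest for the mean of all members. PrlR+/+ 2 was the highest mouse for this list. The contrast between the lists was not tested. Hspd1, the matrix chaperonin, differed by -0.20 ± 0.07 and Timm23, a channel of the protein import machinery, by -0.23 ± 0.09 (SE). Groups that did not overlap were found for 2 of the 17, both lower in PrlR+/- mice, beside 2.24% of all genes in either direction. Vdac2 of the outer membrane was at 10.79, 10.81 and 10.85 against 10.71, 10.71, 10.48 and 9.98. Mfn2, which fuses mitochondria, was at 10.03, 10.15 and 10.07 against 9.98, 9.83, 10.0 and 10.02. Of 37 genes listed as assembly factors outside the name rule 14 were higher and 22 lower, with a median of -0.0358. The list is broad and also holds a protease gene. Foxred1 of complex I assembly differed by -0.42 ± 0.21 and the copper chaperone gene Cox19 by 0.13 ± 0.07. The groups of 1 of these 37, the inner membrane protease gene Oma1, did not overlap, at 8.29, 8.26 and 8.29 against 8.22, 8.21, 8.22 and 7.54. Of 20 regulators of mitochondrial biogenesis 10 were higher and 10 lower, with Tfb2m, a transcription factor of mitochondrial DNA, at 9.44, 9.43 and 9.53 against 9.28, 9.34, 9.11 and 8.72, the 1 regulator whose groups did not overlap, and the mitochondrial RNA polymerase gene Polrmt at a difference of 0.13 ± 0.10. In these 4 lists 0 genes passed limma's adjusted threshold. An unadjusted limma p under 0.05 was found for 1 of 12 genes listed as carriers and 2 of 17 listed as mass markers. It was found for 0 of 37 listed as assembly factors and 1 of 20 listed as regulators, beside 2.2% of all genes.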

How the data were processed

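Islet RNA was hybridised to Affymetrix arrays, and the deposited table holds log2 values of 35556 probe sets, 1 column a mouse. That the unit is log2 follows from the range of 1.73 to 13.97. Affymetrix Expression Console 1.2.0.20 is named by the submitters' processing notes, and how background, scaling and probe sets were handled there is not stated. Gene names come from the platform annotation, and the 21789 probe sets with 1 symbol were kept. Of these, the probe set with the highest mean stood for a gene, which gave 19938 genes, with no filter and no further scaling. Genotypes were taken from the source labels.

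Differences are PrlR+/- minus PrlR+/+ from limma 3.58.1 in R 4.3.3 (lmFit, eBayes), 2-sided, with Benjamini-Hochberg adjustment over all genes, tested on simulated data. Tables were joined with pandas 2.3.3. Sequences and coordinates are from RefSeq (GRCm38.p6).

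The members and lists were chosen with earlier results of these data known. Named are members past the threshold or without overlap, in each complex the 2 of smallest p per direction and the brightest and dimmest, and isoform genes; of other lists, the 2 of smallest p. Atp5b, Atp5c1, Atp5e, Atp5j, Atp5l, Ndufs5, Ndufaf1, Ndufb8, Ndufa11, Ndufs1, Ndufs3, Ndufs8, Ndufv2, Vdac2, Mfn2, Oma1, COX2 and ND3 were chosen with their values in view. Alternatives tried were quantile normalization, median centring, another variance model, array weights, a filter at the 40th percentile, the mean of probe sets, the replicate number as a block, and leaving out each mouse.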

Additional observations from a re-analysis of the deposited data

Results flagged for a closer look

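In the 4 PrlR+/- mice, the highest or lowest value was tested for a gap to the others that is large for the group's range, for 38 named members and 6 means. Chance flags about 5% of such groups if they are independent and hold no equal values, and 3 were flagged. The groups here are not independent, since the means contain named members. Cox6b1, a small subunit of complex IV, was at 10.74 in PrlR+/- 2 against 11.22 to 11.26 in the other PrlR+/- mice. Ndufaf5, an assembly factor of complex I, was at 6.33 in PrlR+/- 3 against 6.55 in each of the others, and its flag rests on these equal values. The mean of complex V was 10.63 in PrlR+/- 2 against 10.78 to 10.80 in the others.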

How the results depend on the processing

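limma called 0 members at the adjusted threshold under every alternative. At an unadjusted p under 0.05 it marked 1 member (438 genes), 2 with array weights (1132 genes) or quantile normalization (466 genes), and 1 to 9 with a mouse left out (9 without PrlR+/- 2, beside 3.98% of all genes, and 6 without PrlR+/+ 1, beside 1.77%). The members without overlap numbered 1 after median centring (beside 4.00% of all genes) and 1 with the mean of probe sets (beside 2.33%). With a mouse left out they numbered 2 to 12, where 3.54% to 10.3% of all genes had such groups. Members with a higher mean numbered 52 to 64 with a mouse left out, and the complex II median ran from -0.045 to 0.113. Signs of small differences turned under array weights, Atp5g2 -0.00896, Cox4i1 0.0709, Cox6c -0.0236, Cox8b -0.0493, Sdhc -0.0477, Sdhd 0.11, Uqcrfs1 0.111; under quantile normalization, Cox4i1 0.00988, Cox6c -0.00351, Sdhd 0.00923, Uqcrfs1 0.0111; under median centring, Cox6c -0.00917; under averaged probe sets, Cox6c -0.0108. With a mouse left out, signs also turned, in ranges of Atp5g2 -0.0225 to 0.0875, Atp5g3 -0.0833 to 0.02, Cox4i1 -0.0975 to 0.117, Cox6a1 -0.147 to 0.463, Cox6a2 -0.345 to 0.41, Cox6c -0.0225 to 0.0225, Cox7a2 -0.0125 to 0.347, Cox7a2l -0.0633 to 0.19, Cox8a -0.142 to 0.0625, Cox8b -0.04 to 0.08, Ndufs7 -0.138 to 0.0375, Sdhc -0.06 to 0.345, Sdhd -0.113 to 0.212, Uqcr10 -0.085 to 0.01, Uqcrb -0.00667 to 0.0433, Uqcrfs1 -0.11 to 0.11, Uqcrh -0.0075 to 0.198. Deviations of same-numbered mice correlated at 0.0896, -0.386 and -0.0287, and those of mice with different numbers at -0.238 to 0.398. With deviations centred in groups of 3 and 4 mice, these values cannot decide whether the replicate numbers pair the mice. With the replicate number as a block, 341 genes and 1 member had an unadjusted p under 0.05. The median of the members was 0.0333, and Cox8b turned to -0.00667. No PrlR+/+ mouse carries the number 4, so the block takes PrlR+/- 4 out of the genotype difference. Its differences are those without PrlR+/- 4 and no separate check. The causes were not tested. No background signal is given, so detection of dim genes is not known.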
